A study of Mus musculus with 6 samples.

Results

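Interferon-stimulated genes are the genes that cells switch on after interferon binds its receptor. The 34 described here were taken from a named list weighted towards the type I interferon response, with guanylate-binding proteins and immunity-related GTPases added, and all 34 had a row among the 28914 genes of the deposited table. RNA was sequenced from splenic CD4 T cells, unfractionated beyond CD4, of NOD mice aged 12 weeks; NOD is a strain prone to autoimmune diabetes. The cells were taken at steady state, and their T cell receptor was not stimulated again. The 6 libraries form 3 groups of 2: Blimp-1 overexpression (BTg), Blimp-1 deficiency (CKO, a knockout per the labels) and control (WT). Prdm1 encodes Blimp-1, which silences transcription and was first described as a repressor of the interferon-beta gene. The labels name neither the driver of the transgene nor the deleted exons nor a Cre line. They also leave unsaid whether replicate libraries stem from different mice, so the p-values reflect library-to-library spread, which may be technical.

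Type I interferons signal through the receptor chains IFNAR1 and IFNAR2 and the kinases JAK1 and TYK2 to a complex that holds STAT2 and IRF9 and binds interferon-stimulated response elements. Interferon-gamma signals through a receptor of its own and is the main inducer of the guanylate-binding proteins and immunity-related GTPases. The protein products detect viral nucleic acids, block viral translation or assembly, or limit the signal itself. In T cells a steady, low level of this response is present without infection.

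Many of the genes carried the recognised sequence close to their start. RefSeq promoter windows (GRCm38.p6) were held for 24 of the 34 genes, with Usp18, Oas2, Mx1, Mx2, Dhx58, Zbp1, Gbp4, Iigp1, Ifi27l2a and Rtp4 without one. The core of the response element, searched on both strands as GAAA, any 2 bases and GAAA again, lay within the 250 bases upstream of a start site in 17 of these 24 genes (70.8%), against 936 of all 27025 genes with a window (3.46%). The core of the Blimp-1 site, searched as AGNGAAAG on both strands, was present in 3 of the 24 (12.5%), Stat2, Gbp2 and Gbp3, against 8.42% of all genes; both motifs contain GAAA, and in Gbp2 the matches overlap. A match describes these letters and is not a binding site. The stretches below are shown for the 5 genes with a match and an unadjusted p under 0.05 in some comparison, plus Isg15 with its run of matches and the near-identical pair Ifit3 and Ifit3b. Each reads 5′ to 3′ on the strand of the gene, and capitals mark the response element core in either orientation.
Oas1a (chr5:120907526-120907565, minus strand): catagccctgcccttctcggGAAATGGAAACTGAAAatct
Oas3 (chr5:120777705-120777754, minus strand): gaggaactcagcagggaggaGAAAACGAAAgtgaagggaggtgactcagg
Gbp3 (chr3:142559992-142560021, plus strand): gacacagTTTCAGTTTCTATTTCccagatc
Cxcl10 (chr5:92349073-92349122, minus strand): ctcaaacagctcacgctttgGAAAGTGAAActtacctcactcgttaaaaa
Slfn5 (chr11:82951927-82951976, plus strand): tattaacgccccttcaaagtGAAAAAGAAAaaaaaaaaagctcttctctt
Isg15 (chr4:156200855-156200916, minus strand): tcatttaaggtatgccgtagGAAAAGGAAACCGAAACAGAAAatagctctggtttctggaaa
Ifit3 (chr19:34583353-34583402, plus strand): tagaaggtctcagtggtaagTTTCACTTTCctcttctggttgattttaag
Ifit3b (chr19:34607749-34607798, plus strand): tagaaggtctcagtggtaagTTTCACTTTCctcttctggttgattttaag
Isg15 held 3 overlapping matches and Oas1a and Gbp3 held 2 each in the stretch shown. The Ifit3 and Ifit3b stretches are letter for letter the same, although their first bases lie 176 and 208 bases before the start sites. The Slfn5 stretch precedes the RefSeq start but lies within the longer GENCODE gene, outside its exons.

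**Figure D1:**
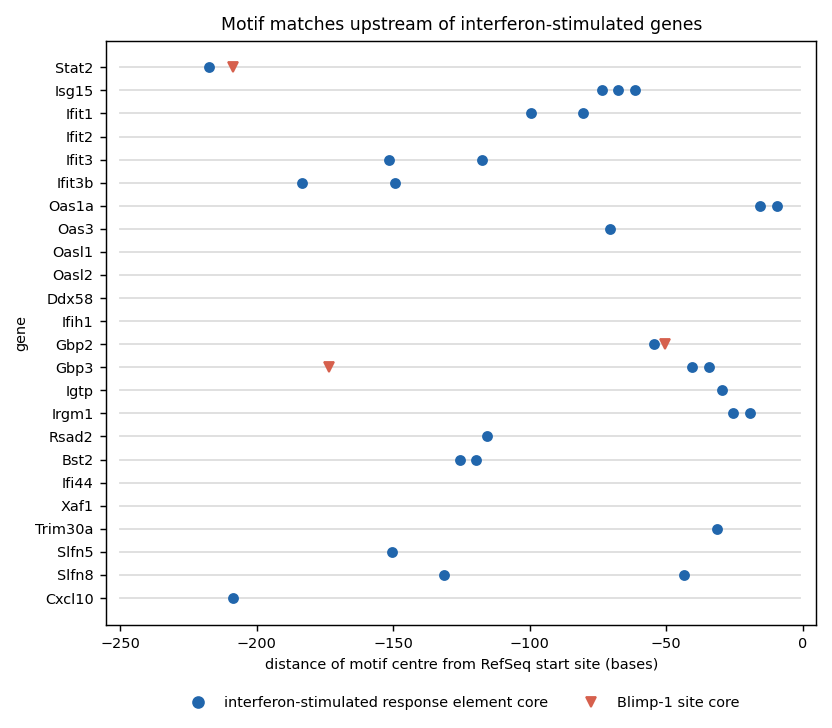
Matches to the interferon-stimulated response element core (circles) and to the Blimp-1 site core (triangles) in the 250 bases before the RefSeq start sites of the 24 genes with a promoter window; the x axis is the distance of the motif centre from the start site in bases. Of these genes 17 have at least 1 circle and 3 have a triangle; for genes with 2 annotated starts the matches of both windows are drawn, so the 2 circles of Slfn8 are 1 sequence seen from 2 starts.

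The libraries held 14958458 to 17799091 counted reads. Prdm1, as the check of the labels, stood at 19.6 and 30.1 FPKM in BTg, 0.849 and 0.669 in CKO and 0.458 and 0.628 in WT. It was high in the libraries labelled BTg, while those labelled CKO were no lower than WT. CKO therefore stands throughout for the libraries labelled Blimp-1 deficient, and directions drawn from it rest on the label. The T cell label was met in each group, with Cd4 at 99.4 and 103 FPKM in BTg, 53.8 and 93.7 in CKO and 93.7 and 81.7 in WT, while Cd8a stayed at or below 0.13 FPKM. The 9 CD4 T cell markers summed to 2890 and 2150 FPKM in BTg, 1510 and 1850 in CKO and 3040 and 1710 in WT. All 9 were lower in CKO than in WT (median log2 difference -0.42), and all 9 were higher in BTg than in CKO (median 0.62); 0 passed the threshold or had unadjusted p under 0.05. CKO replicate 1 stood apart, with markers of neutrophils, monocytes and plasma cells far above the other libraries, as detailed after the results.

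No gene of the list passed the threshold in any comparison. The test was limma on log2(FPKM + 1) with Benjamini-Hochberg adjustment over all genes tested, and the threshold an adjusted p under 0.05. Genes needed at least 1 FPKM in at least 2 libraries, which 27 of the 34 met. In CKO against WT 0 of 27 passed, with 0% of all 10798 genes called. In BTg against WT 0 of 27 passed, with 0.0185% of all genes called. In BTg against CKO 0 of 27 passed, again with 0.0185% called. Limma voom on recovered reads, described below, also passed 0 genes of the list in each comparison. Differences at unadjusted p under 0.05 are given below as values, and none is called a change.

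In CKO against WT, 17 of the 27 genes were higher (63%, against 45.4% of all genes tested) and 10 lower. The median log2 difference was 0.22, against -0.03 over all genes tested. At unadjusted p under 0.05, 4 were higher (14.8%, against 3.11% of all genes) and 0 lower (against 1.09%). They were Oas1a, Oas3, Gbp3 and Cxcl10. Cxcl10 reached 1 FPKM in the CKO libraries alone, and Oas1a in those and BTg replicate 2, so both passed the filter through the group in which they were high. Without these 2 genes the count was 2 of 25 (8%) and the median 0.19. By limma voom on recovered reads, which could test all 34 genes, 6 were higher at unadjusted p under 0.05 (17.6%, against 5.02% of all genes), with Mx1 and Ifi44 added to those 4, and 0 passed the threshold. Without CKO replicate 1 the count at unadjusted p under 0.05 was 1 of 26, Oas1a, which was higher (3.85%, against 1.92% of all genes). Without CKO replicate 2, 5 were higher (19.2%, against 7.04%) and 4 lower (15.4%, against 10.2%). CKO replicate 1 also held the highest sums of neutrophil and monocyte markers, and in bulk libraries fewer cells of a type and less RNA per cell cannot be told apart.

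In BTg against WT, 16 of the 27 were higher (59.3%, against 54.5% of all genes) and 11 lower, with a median log2 difference of 0.08 against 0.02. At unadjusted p under 0.05, 0 were higher (against 0.769% of all genes) and 1, Slfn5, was lower (3.7%, against 0.852%). In BTg against CKO, 11 were higher (40.7%, against 56.1% of all genes) and 16 lower, with a median of -0.03 against 0.06. There 1 gene, Ifit2, was higher at unadjusted p under 0.05 (3.7%, against 2.78%) and 5 were lower (18.5%, against 6.01%), namely Usp18, Oas1a, Oas3, Gbp3 and Cxcl10. Without Cxcl10 and Oas1a, 3 of 25 were lower (12%). Without CKO replicate 1, 0 were higher (against 1.11% of all genes) and 3 lower (11.5%, against 3.33%). Without CKO replicate 2, 4 were higher (15.4%, against 16.3%) and 5 lower (19.2%, against 10.2%). The lower genes without CKO replicate 1 were Gbp3, Slfn5 and Usp18, of which Slfn5 is not among the 5 named above. The comparisons with CKO share the CKO libraries, so the appearance of 4 genes in both is not a second observation.

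**Figure D2:**
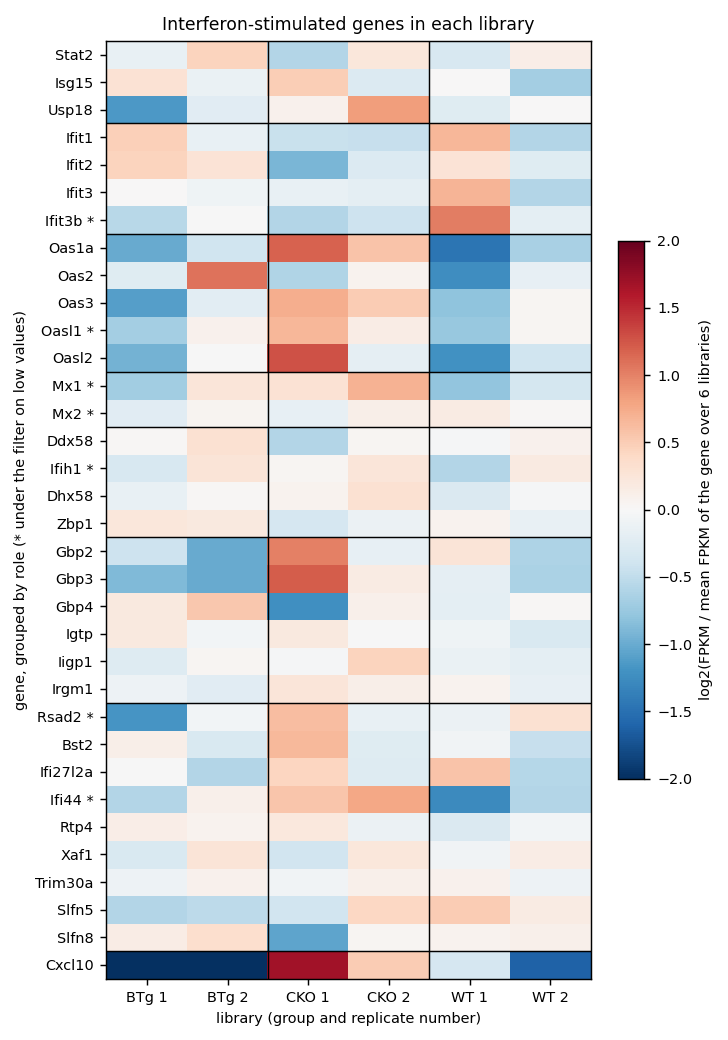
Level of each of the 34 genes in the 6 libraries (columns) as log2 of its FPKM over its own mean of 6 libraries, with genes in rows grouped by role and an asterisk on those under the filter on low values. The colour scale ends at 2 in either direction, which the 2 BTg values of Cxcl10 exceed. Rows differ in pattern, and CKO replicate 1 holds the highest value of 13 genes and the lowest of 8. The same counts over all genes were not made.

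The genes did not share a single pattern over the libraries. Of the 34 genes, 13 were highest in CKO replicate 1, 6 in CKO replicate 2, 7 in BTg replicate 2, 2 in BTg replicate 1, 6 in WT replicate 1 and 0 in WT replicate 2. The same counts over all genes were not made, so these are not read as a trait of the list. Reads on the 34 genes made up 0.191 and 0.2% of a BTg library, 0.198 and 0.205% of a CKO library and 0.205 and 0.175% of a WT library, a range in which the groups overlap. The gap between the 2 libraries of a group had a median size among the 27 genes of 0.27 in BTg, 0.47 in CKO and 0.33 in WT on the log2(FPKM + 1) scale, against 0.23, 0.47 and 0.32 over all genes tested.

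Per base of exon the genes spanned a wide range of levels. The deposited FPKM divide by a median transcript span that counts introns, so levels of different genes were compared after dividing the recovered reads by merged exon length. On that exon-length scale Ifi27l2a, a small mitochondrial membrane protein, was the most abundant, with a mean of 531 FPKM over the 6 libraries. Igtp followed with 83.3 and Bst2 with 77.9. The lowest were Ifi44 with 0.355, Ifit3b with 1.01, Rsad2 with 1.03 and Cxcl10 with 1.07. All values that follow are on the deposited scale, where a gene is compared only with itself.

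Signal transduction and its feedback came first in the pathway. Stat2, a transcription factor of the type I response, stood at 10.5 and 15.9 FPKM in BTg, 7.82 and 13.7 in CKO and 9.33 and 12.8 in WT. The groups overlapped, and the spread within each was wider than the differences between them. Isg15, a ubiquitin-like protein attached to other proteins after interferon, stood at 14.4 and 10.8 FPKM in BTg, 16.7 and 9.78 in CKO and 11.9 and 7.42 in WT, again with overlapping groups. Usp18, the protease that removes ISG15 and also blocks the receptor as negative feedback, stood at 4.68 and 8.89 FPKM in BTg, 11 and 18.5 in CKO and 8.77 and 10.4 in WT. Both CKO libraries lay above all others, by a small margin for replicate 1, and BTg overlapped WT. BTg was lower than CKO by a log2 difference of -1.03 (SE 0.38, limma unadjusted p = 0.0342, adjusted p = 0.525). It was -0.63 without BTg replicate 1 and -0.68 without CKO replicate 2. An annotated transcript on the opposite strand, Gm44148, overlaps exons of Usp18.

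The IFIT proteins bind foreign or uncapped viral RNA and block its translation. The 4 genes measured lie close together between 34550694 and 34650009 on chromosome 19 (GRCm38). Ifit2 stood at 4.32 and 3.83 FPKM in BTg, 1.67 and 2.62 in CKO and 3.84 and 2.68 in WT. CKO lay below both other groups, narrowly so against WT, and BTg was higher than CKO by 0.70 (SE 0.25, limma unadjusted p = 0.0308, adjusted p = 0.512). Without CKO replicate 1 that difference was 0.48. Ifit1 stood at 3.07 and 2.01 FPKM in BTg, 1.62 and 1.61 in CKO and 3.52 and 1.47 in WT, where the 2 control libraries bracketed every other value. Ifit3 stood at 1.9 and 1.77 FPKM in BTg, 1.69 and 1.65 in CKO and 3.02 and 1.26 in WT. WT replicate 1 was the highest library for Ifit1, Ifit3 and Ifit3b, and WT replicate 2 the lowest for Ifit1 and Ifit3. Ifit3b, under the filter, ranged from 0.248 to 0.756 FPKM. Of the 50-base stretches in Ifit3 transcripts 51.2% also occur in Ifit3b, so how reads were divided between these paralogs is uncertain.

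The OAS enzymes sense double-stranded RNA and make the messenger that activates RNase L. All 4 tested genes of the family that belong to the list described here had a higher mean in CKO than in WT. Oas1b and Oas1c, tested outside that list, had a lower mean in CKO. Oas1b had a mean of 2.0 FPKM in CKO and 2.36 in WT, and Oas1c 1.56 and 1.8, with overlapping groups for both. Oas1a (ENSMUSG00000052776, chromosome 5, 120896256 to 120907521 on GRCm38, minus strand) stood at 0.692 and 1.05 FPKM in BTg, 3.15 and 2.06 in CKO and 0.504 and 0.89 in WT. These rest on 119 and 177 reads in BTg, 631 and 412 in CKO and 101 and 153 in WT. Both CKO libraries lay above all 4 others. CKO was higher than WT by a log2 difference of 1.08 (SE 0.26, limma unadjusted p = 0.00626, adjusted p = 0.911), the smallest adjusted p of the list in that comparison. Since Oas1a lies near the pseudocount of 1, this scale understates it: by limma voom on recovered reads the log2 difference was 1.94 (SE 0.43, adjusted p = 0.625). BTg was lower than CKO by -0.94 (SE 0.26, limma unadjusted p = 0.0118, adjusted p = 0.438). Without CKO replicate 1 the difference of CKO against WT was 0.86, and without CKO replicate 2 it was 1.30. Oas1g, a neighbouring paralog whose transcripts hold 57.6% of the 50-base stretches of Oas1a, had 0 and 2 reads in BTg, 59 and 3 in CKO and 1 and 3 in WT, so a share of Oas1a reads could belong to it or the reverse.

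Oas3, the longest of these enzymes, stood at 1.49 and 2.78 FPKM in BTg, 5.3 and 4.54 in CKO and 1.83 and 3.3 in WT. Its CKO libraries again lay above all others, and BTg and WT overlapped. CKO was higher than WT by 0.76 (SE 0.31, limma unadjusted p = 0.0488, adjusted p = 1), and BTg was lower than CKO by -0.94 (SE 0.31, limma unadjusted p = 0.0222, adjusted p = 0.483). Without WT replicate 1 the difference of CKO against WT was 0.46. Oas2, which lies on the same strand of chromosome 5 at 120730333 to 120749853, just past Oas3 at 120753098 to 120777661, stood at 1.78 and 4.45 FPKM in BTg, 1.38 and 2.2 in CKO and 0.886 and 1.88 in WT. Its groups overlapped, and its highest library was BTg replicate 2. Oasl2, an OAS-like protein with ubiquitin-like domains, stood at 2.65 and 5.05 FPKM in BTg, 12.3 and 4.5 in CKO and 2.21 and 3.85 in WT. CKO replicate 1 stood far above the other libraries, while CKO replicate 2 lay within the range of BTg and just above WT. CKO was higher than WT by 1.11 (SE 0.49, limma unadjusted p = 0.0642, adjusted p = 1). Oasl1, under the filter, ranged from 0.192 to 0.513 FPKM, with both CKO libraries above the others by as little as 0.358 against 0.345 FPKM.

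**Figure D3:**
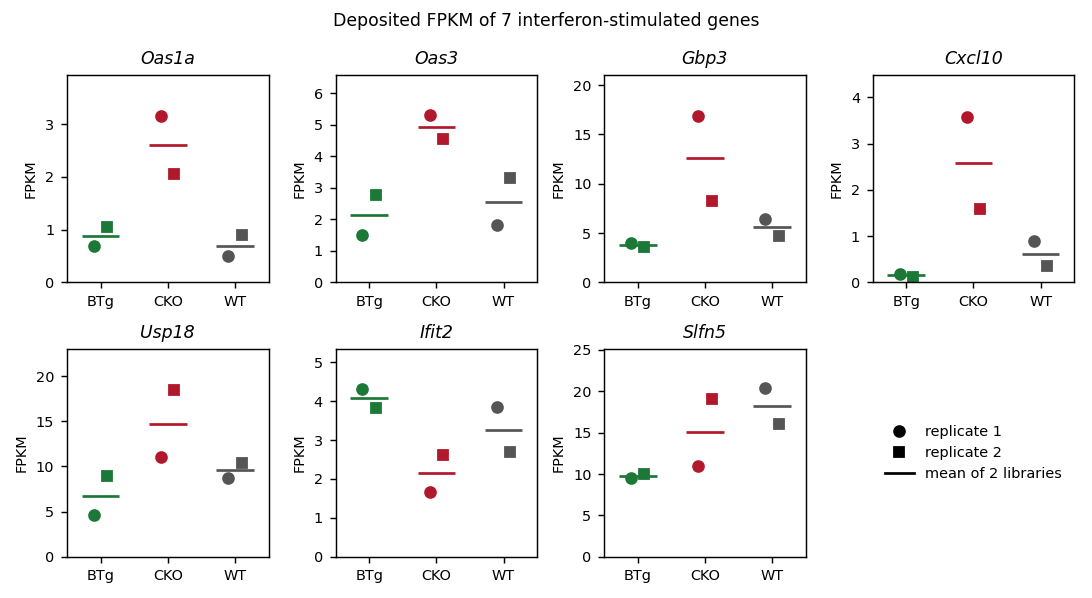
Deposited FPKM of the 7 genes with unadjusted p under 0.05 in some comparison, by group; circles are replicate 1, squares replicate 2 and lines the mean of 2 libraries. Oas1a, Oas3, Gbp3, Usp18 and Cxcl10 have both CKO libraries above the BTg and WT libraries, Ifit2 has both below, and Slfn5 is low in both BTg libraries.

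The Mx proteins are dynamin-like GTPases that trap viral particles, and both genes were low. Mx1 stood at 0.441 and 0.846 FPKM in BTg, 0.871 and 1.16 in CKO and 0.414 and 0.56 in WT, under the filter. The CKO libraries were the highest, although CKO replicate 1 and BTg replicate 2 nearly met, and by limma voom on recovered reads CKO was higher than WT by 1.07 (SE 0.45, unadjusted p = 0.0438, adjusted p = 0.829). Mx2 ranged from 0.19 to 0.249 FPKM over the 6 libraries, with no separation.

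The sensors of nucleic acids differed little between group means. Ddx58, encoding the RNA sensor RIG-I, stood at 7.08 and 8.63 FPKM in BTg, 4.63 and 7.18 in CKO and 6.83 and 7.41 in WT. Dhx58, encoding LGP2, a regulator of the other 2 RNA sensors, stood at 8.22 and 9.29 FPKM in BTg, 9.53 and 11.2 in CKO and 7.43 and 9.01 in WT. Zbp1, a sensor of Z-form nucleic acid that can trigger necroptosis, stood at 9.83 and 9.61 FPKM in BTg, 6.64 and 7.75 in CKO and 8.81 and 7.56 in WT. CKO was highest for Dhx58 and BTg for Zbp1, each without overlap but with log2 differences of at most 0.39 in size. Ifih1, encoding MDA5, stayed between 0.484 and 0.867 FPKM in all 6 libraries, under the filter.

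The guanylate-binding proteins, which attack the membranes of intracellular microbes, differed among themselves. Gbp3 (ENSMUSG00000028268, chromosome 3, 142560026 to 142573209 on GRCm38, plus strand) stood at 3.99 and 3.62 FPKM in BTg, 16.9 and 8.24 in CKO and 6.43 and 4.73 in WT. The 3 groups did not overlap, with BTg lowest and CKO highest. CKO was higher than WT by 0.98 (SE 0.36, limma unadjusted p = 0.0332, adjusted p = 1), and BTg was lower than CKO by -1.42 (SE 0.36, limma unadjusted p = 0.00717, adjusted p = 0.382). CKO replicate 1 held the highest value. Without it the differences were 0.50 and -0.94, and without CKO replicate 2 they were 1.45 and -1.90, the second with limma adjusted p = 0.0458.

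Gbp2, close to Gbp3 on chromosome 3, stood at 3.65 and 2.42 FPKM in BTg, 9.85 and 4.33 in CKO and 5.83 and 3.17 in WT. BTg lay below CKO without overlap, and both overlapped WT. Gbp4, from the other gene cluster on chromosome 5, had the opposite order, at 13.7 and 17.4 FPKM in BTg, 5.08 and 12.8 in CKO and 10.4 and 12.1 in WT. CKO replicate 1, the highest library for Gbp2 and Gbp3, was the lowest for Gbp4. Their differences of BTg against CKO were -0.93 (SE 0.42) for Gbp2 and 0.85 (SE 0.42) for Gbp4, with limma unadjusted p = 0.0708 and 0.0875. The annotated exons of Gbp4, 7494 bases in all, overlap those of Gbp8 by 61 bases and of Gbp9 by 60 on the same strand. Of the 50-base stretches of Gbp4 7.7% also occur in another gene. The division of reads over these parts is uncertain.

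The immunity-related GTPases, which guard against vacuolar pathogens, were close to level. Igtp stood at 24.1 and 20.3 FPKM in BTg, 24.2 and 21 in CKO and 19.8 and 17.1 in WT. Irgm1 stood at 13.9 and 12.8 FPKM in BTg, 17.7 and 16.1 in CKO and 15.6 and 13.3 in WT. Iigp1 stood at 7.64 and 9.43 FPKM in BTg, 9.08 and 12.5 in CKO and 8.41 and 8.04 in WT. In all 3 the CKO libraries were above both WT libraries, yet the log2 differences were only 0.28 (SE 0.26), 0.22 (SE 0.24) and 0.34 (SE 0.25), in the order Igtp, Irgm1 and Iigp1, about the size of their errors. Of the 50-base stretches of Igtp 11.8% also occur in Irgm2, whose annotated exons overlap it.

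Among the other effectors, Slfn5 was the gene with unadjusted p under 0.05 in BTg against WT. Slfn5, a member of the Schlafen family of growth regulators, stood at 9.56 and 9.97 FPKM in BTg, 11 and 19.1 in CKO and 20.4 and 16 in WT. BTg lay below every other library, and CKO overlapped WT. BTg was lower than WT by -0.83 (SE 0.32, limma unadjusted p = 0.0428, adjusted p = 1), and the difference was -0.66 to -0.99 when any 1 library was left out. The annotation places an antisense transcript, Slfn5os, over part of its exons, and no strand setting is given, so reads of the pair cannot be told apart. Slfn8, its relative, stood at 7.28 and 8.28 FPKM in BTg, 3.15 and 6.79 in CKO and 6.87 and 7.07 in WT, with BTg slightly highest and CKO replicate 1 far below the rest.

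Of the remaining effectors, the 5 tested overlapped between CKO and WT. Bst2, the tetherin protein that holds budding virus at the membrane, stood at 32.4 and 24 FPKM in BTg, 46.7 and 25.2 in CKO and 28.3 and 21.7 in WT. Ifi27l2a stood at 161 and 108 FPKM in BTg, 220 and 136 in CKO and 240 and 110 in WT, with replicate 1 above replicate 2 in each group. Trim30a, an inhibitor of Toll-like receptor signalling, stood at 22.4 and 25.5 FPKM in BTg, 23 and 25.9 in CKO and 25.6 and 22.5 in WT. It was the most even gene of the set, with log2 differences of at most 0.03 in size. Xaf1, a promoter of apoptosis, stood at 3.3 and 4.84 FPKM in BTg, 3.12 and 4.73 in CKO and 3.87 and 4.51 in WT. Rtp4, a chaperone of membrane receptors, stood at 5.31 and 5.11 FPKM in BTg, 5.64 and 4.47 in CKO and 3.97 and 4.66 in WT, with BTg just above WT; its exons overlap those of Gm45338. Rsad2, encoding the antiviral enzyme viperin, was under the filter at 0.144 to 0.501 FPKM. Its highest library was CKO replicate 1. Ifi44, a marker of the type I response, was also under it, at 0.133 and 0.216 FPKM in BTg, 0.295 and 0.343 in CKO and 0.0829 and 0.133 in WT, from 16 to 66 reads a library. Its CKO libraries lay above all others, and limma voom gave 1.59 against WT (SE 0.56, unadjusted p = 0.0221, adjusted p = 0.801).

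Cxcl10, a chemokine that draws cells bearing CXCR3, had the widest range of the set. It stood at 0.182 and 0.124 FPKM in BTg, 3.57 and 1.59 in CKO and 0.886 and 0.364 in WT. These rest on 6 and 4 reads in BTg, 137 and 61 in CKO and 34 and 12 in WT. The 3 groups did not overlap, in the order BTg, WT and CKO from low to high. BTg was lower than CKO by -1.58 (SE 0.34, limma unadjusted p = 0.00359, adjusted p = 0.302) and CKO higher than WT by 1.10 (SE 0.34, limma unadjusted p = 0.0179, adjusted p = 1). By limma voom on the recovered reads these were -3.85 (SE 0.82, adjusted p = 0.134) and 2.02 (SE 0.66, adjusted p = 0.777). With either CKO library left out the gene no longer passed the filter, so no such value is given. The annotation places exons of Art3 on the opposite strand over part of Cxcl10.

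**Figure D4:**
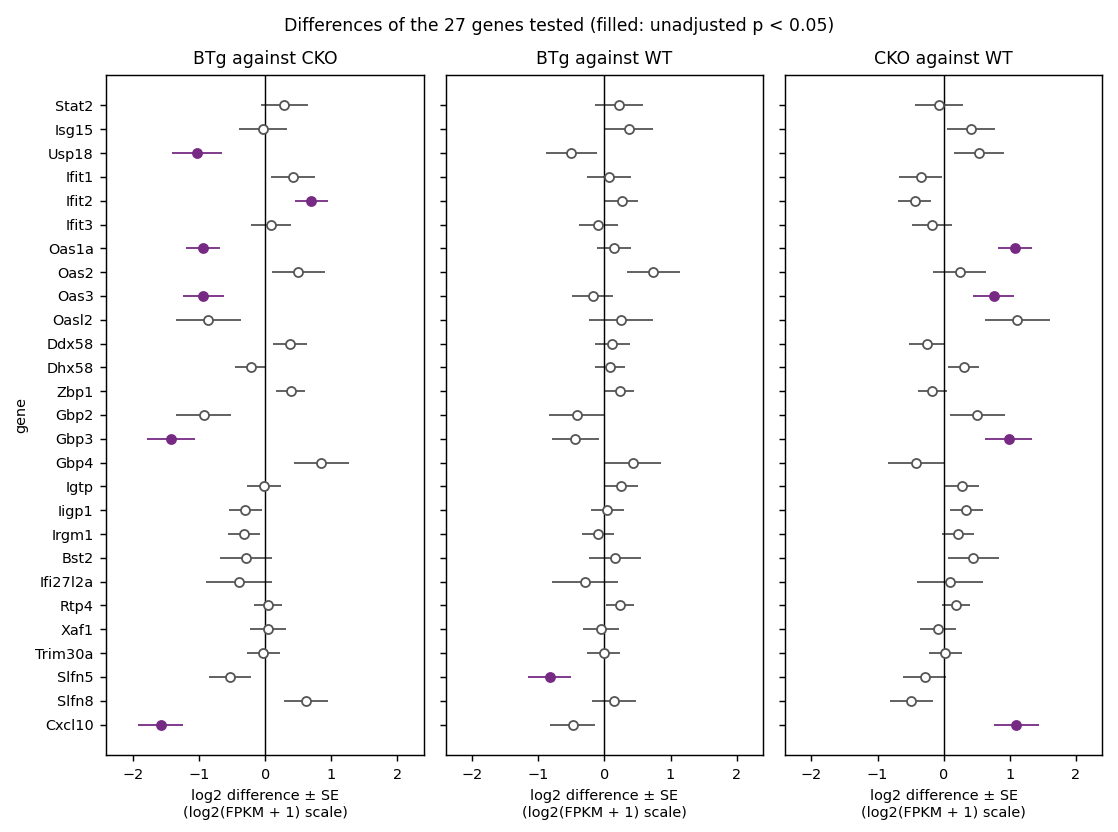
Differences of the 27 genes tested, as log2 difference on the log2(FPKM + 1) scale with its standard error, for BTg against CKO, BTg against WT and CKO against WT; filled points have unadjusted p under 0.05. There are 6, 1 and 4 filled points in that order, and no point passed after adjustment over all 10798 genes.

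Counted by separation alone, 10 of the 27 tested genes had both CKO libraries above both WT libraries (37%, against 11.5% of all genes tested) and 2 had both below (7.41%, against 8.96%). For BTg against WT, 5 lay above (18.5%, against 14.7%) and 3 below (11.1%, against 10.4%), close to the share over all genes. For BTg against CKO, 6 lay above (22.2%, against 17.8%) and 9 below (33.3%, against 21.8%). Without Cxcl10 and Oas1a, which passed the filter through CKO, 8 of 25 lay above in CKO against WT (32%) and 7 of 25 below in BTg against CKO (28%). Over all 34 genes, with no filter, 13 had CKO above WT (38.2%, against 13.4% of all 28914 genes) and 3 below (8.82%, against 9.15%). In BTg against WT the same counts were 6 above (17.6%, against 12.4%) and 3 below (8.82%, against 11.1%), and in BTg against CKO 6 above (17.6%, against 13.7%) and 12 below (35.3%, against 21%).

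The upstream genes of the pathway were balanced between CKO and WT. Of the list of ligands, receptors and signal transducers, 26 had a row and 22 were tested, and 0 passed in any comparison. At unadjusted p under 0.05 there were 0 in CKO against WT. In BTg against WT 1 was higher (4.55%, against 0.769% of all genes). In BTg against CKO 1 was higher (4.55%, against 2.78%) and 1 lower (4.55%, against 6.01%). In CKO against WT 11 were higher (50%, against 45.4% of all genes) and 11 lower, with a median log2 difference of 0 against -0.03. In BTg against WT 18 were higher (81.8%, against 54.5% of all genes) and 4 lower, with a median of 0.12 against 0.02. In BTg against CKO 12 were higher (54.5%, against 56.1%) and 10 lower, with a median of 0.06 against 0.06. Ifna1, Ifna2, Ifna4 and Ifnb1, which encode type I ligands, were not among the 26 with a row and were not analysed.

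Irf9, a DNA-binding partner of STAT2, stood at 30.7 and 33.6 FPKM in BTg, 22.6 and 32.6 in CKO and 30.2 and 32.3 in WT. Irf7, an amplifier of type I interferon production, stood at 35.3 and 38.9 FPKM in BTg, 22.3 and 31.2 in CKO and 24.4 and 33.1 in WT. In Irf7 BTg lay above both other groups, and in Irf9 and Irf7 CKO overlapped WT, with CKO replicate 1 the lowest library.

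Among the receptors, Ifnar1 stood at 15.6 and 19.2 FPKM in BTg, 7.45 and 14.8 in CKO and 11.7 and 14.7 in WT. Ifnar2 stood at 2.91 and 2.98 FPKM in BTg, 3.53 and 3.73 in CKO and 2.23 and 2.97 in WT. Ifngr1, the ligand-binding chain for interferon-gamma, stood at 12.7 and 16.1 FPKM in BTg, 19.8 and 13.2 in CKO and 10.8 and 13.2 in WT. BTg was the highest group for Ifnar1 and CKO for Ifnar2, while Ifngr1 overlapped throughout. Ifngr2, its second chain, stood at 2.29 and 2.42 FPKM in BTg, 2.48 and 2.51 in CKO and 3.72 and 3.29 in WT. WT was the highest group, and BTg was lower than WT by -0.43 (SE 0.18, limma unadjusted p = 0.0601, adjusted p = 1).

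Ifng itself, the type II ligand, stood at 0.225 and 0.208 FPKM in BTg, 1.05 and 1.14 in CKO and 0.859 and 0.429 in WT. The groups did not overlap, with BTg lowest, and it passed the filter through the CKO libraries. The Ifng values rest on 11 and 10 reads in BTg, 60 and 65 in CKO and 49 and 21 in WT. BTg was lower than CKO by -0.78 (SE 0.24, limma unadjusted p = 0.0179, adjusted p = 0.47). Socs3, an inhibitor of cytokine receptors, stood at 218 and 205 FPKM in BTg, 120 and 119 in CKO and 121 and 119 in WT. BTg was higher than WT by 0.81 (SE 0.29, limma unadjusted p = 0.0303, adjusted p = 1).

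A second list of 58 interferon-induced genes outside the set had 49 tested, and 0 passed in any comparison. In CKO against WT 24 were higher (49%, against 45.4% of all genes) and 25 lower, with a median of -0.04 against -0.03. At unadjusted p under 0.05, 1 was higher (2.04%, against 3.11% of all genes), Trafd1, a feedback inhibitor of innate signalling, at 11 and 10.7 FPKM in CKO against 5.87 and 6.84 in WT. In BTg against WT 35 were higher (71.4%, against 54.5% of all genes) and 14 lower, with a median of 0.11 against 0.02. There 0 had unadjusted p under 0.05. In BTg against CKO 33 were higher (67.3%, against 56.1% of all genes) and 16 lower, with a median of 0.14 against 0.06. The 8 at unadjusted p under 0.05 were all lower (16.3%, against 6.01% of all genes).

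Of these 8, Eif2ak2, encoding the RNA-activated kinase PKR, stood at 1.94 and 2.6 FPKM in BTg, 6.7 and 4.66 in CKO and 2.24 and 4.31 in WT. Isg20, an exonuclease, stood at 4.61 and 4.3 FPKM in BTg, 10.8 and 8.22 in CKO and 5.06 and 8.39 in WT. For both genes BTg lay below CKO without overlap. Tor3a stood at 0.829 and 0.911 FPKM in BTg, 2.18 and 1.77 in CKO and 1.17 and 1.07 in WT, with no overlap among the groups. Ifitm3, a membrane protein that blocks viral entry and is abundant in myeloid cells, stood at 3.98 and 6.04 FPKM in BTg, 169 and 18.2 in CKO and 4.89 and 15.4 in WT, with CKO replicate 1 far above the rest.

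Summed markers of neutrophils, monocytes and plasma cells were higher in both CKO libraries than in any other library, while other lists differed in order. The 10 neutrophil markers summed to 29 and 30.3 FPKM in BTg, 7160 and 165 in CKO and 48.9 and 130 in WT, with all 10 above 1 FPKM on average and Retnlg at 0 in BTg replicate 1. The 12 monocyte and macrophage markers summed to 10.8 and 9.83 FPKM in BTg, 252 and 38.4 in CKO and 13.5 and 28.4 in WT, with 5 above 1 FPKM on average and Fcgr1, C1qa and C1qb among those at 0 in 1 BTg library. The 7 plasma cell markers summed to 139 and 92.4 FPKM in BTg, 952 and 252 in CKO and 162 and 162 in WT. The 7 markers of conventional dendritic cells summed to 0.702 and 1.22 FPKM in BTg, 2.28 and 2.98 in CKO and 0.799 and 3.38 in WT, none of them at 0 in any library. The 8 B cell markers summed to 5.17 and 6.24 FPKM in BTg, 21.7 and 8.77 in CKO and 5.64 and 9.72 in WT. The 8 plasmacytoid dendritic cell markers summed to 39.9 and 31.2 FPKM in BTg, 50.1 and 31.1 in CKO and 33.4 and 28.7 in WT. Most of each sum was Bst2, also one of the genes described. It stood at 32.4 and 24 FPKM in BTg, 46.7 and 25.2 in CKO and 28.3 and 21.7 in WT. The sum is therefore mainly a value of that gene and gives no separate measure of these cells. Siglech, the most specific, stayed at or below 0.664 FPKM, and Klk1 and Cox6a2 were at 0 in 1 library each.

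**Figure D5:**
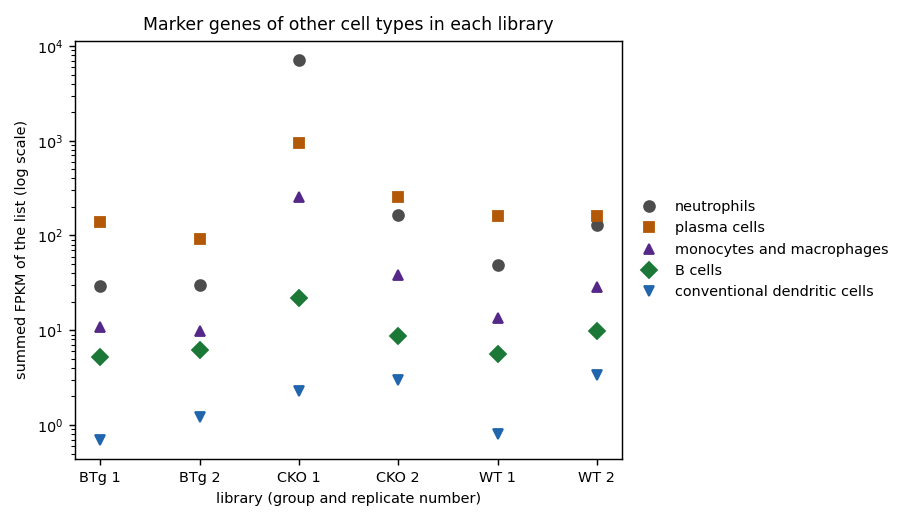
Summed FPKM of marker lists of 5 other cell types in each library, on a log axis. CKO replicate 1 is the highest library for neutrophil (7160 FPKM), plasma cell (952), monocyte and macrophage (252) and B cell (21.7) markers, and CKO replicate 2 stands above the WT libraries for the first 3 of these lists.

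Cxcl10, Oas1a, Oas3, Oasl2, Gbp2 and Gbp3 were among the 13 genes whose highest library was also CKO replicate 1. Cxcl10, Oas1a, Oas3 and Gbp3, named for being higher in CKO than in WT, were above WT in CKO replicate 2 too, which follows from that choice. The neutrophil, monocyte and plasma cell sums of that library were also above WT. They were 165, 38.4 and 252 FPKM, against at most 130, 28.4 and 162 in WT. The part of such cells, and of the lower CD4 T cell markers in CKO, in the results was not tested. The 16 cell cycle genes summed to 310 and 333 FPKM in BTg, 943 and 597 in CKO and 315 and 691 in WT. Erythroid markers summed to 104 and 166 FPKM in BTg, 394 and 626 in CKO and 92.8 and 1020 in WT. The markers of NK cells summed to at most 3.16 FPKM and those of CD8 T cells to at most 0.844.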

How the data were processed

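The submitters' processing notes name GRCm38 and the tools featureCounts 1.6.0, HISAT2 2.1.0 and Trimmomatic 0.38, without settings, annotation release or strand handling. FPKM values were deposited by the authors for the 6 libraries. Multiplying them by the median transcript span of GENCODE M21 gave whole reads (tolerance 0.01) for 100% of the nonzero values, against 21.2 to 22.9% with merged exon length.

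The 34 genes and the other lists were chosen with earlier results of these data known. Genes at 1 FPKM or more in at least 2 libraries entered 1 limma fit of log2(FPKM + 1) over all 6 libraries (R 4.3.3, limma 3.58.1; eBayes with a trend, no block), with Benjamini-Hochberg adjustment over 10798 genes and 0.05 as the threshold. Fold changes on this scale understate low genes. An exact permutation test of 2 against 2 libraries cannot pass 0.05 and was not used. All 27 genes that passed the filter are given with each library's value, and 5 of the other 7 by their range. Log2 differences are given for those of the 34 genes at unadjusted p under 0.05. Outside the 34 they are given for Ifng in BTg against CKO, for Socs3 in BTg against WT and for Ifngr2, which was above 0.05. For named genes of the second list only library values are given. The log2 differences of Oasl2, Gbp2, Gbp4, Igtp, Irgm1 and Iigp1, and the library values of Mx1 and Ifi44, were added with the values in view. Figures were drawn with matplotlib 3.10.9.

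Groups and replicate numbers came from the bracketed names in the sample titles. The unbracketed part of the title is the same for both BTg libraries. Alternatives were another pseudocount (0.1), other filters, quantile normalization, median centring, a replicate block, no variance trend, exon length, limma voom on recovered reads (at least 10 in 2 libraries) and leaving out each library. Some genes of the marker and pathway lists are counted in their lists but not reported here by name.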

Additional observations from a re-analysis of the deposited data

How the results depend on the processing

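Precision was limited by 2 libraries a group and by low reads for genes such as Cxcl10. The count of interferon-stimulated genes past the threshold stayed at 0 in CKO against WT and BTg against WT under all 15 alternatives; in BTg against CKO it was 0 to 1 when each library was left out (1, Gbp3, without CKO replicate 2) and 0 otherwise. Their median log2 difference moved by less than the spread between libraries (SD 0.11), except to -0.21 in BTg against CKO with limma voom on recovered reads. That test adds the 7 low genes. So do the fits without a filter and with a filter of 0.1 FPKM, where this median was -0.12. No log2 difference at unadjusted p under 0.05 turned sign, and 1 became called (Gbp3, as above). Over the alternatives, adjusted p was 0.151 to 1 for Oas1a in CKO against WT, 0.134 to 1 for Cxcl10 in BTg against CKO and 0.0458 to 1 for Gbp3 in BTg against CKO.

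The counts over all genes moved more. For CKO against WT, BTg against WT and BTg against CKO in that order they were 65, 46 and 81 without a filter on low values. With a filter of 0.1 FPKM, with quantile normalization or with a replicate block, BTg against WT and BTg against CKO each gave 0. With limma voom they gave 4 and 7, and with merged exon length BTg against CKO gave 9. With 1 library left out the counts were 0 to 67, 0 to 0 and 0 to 238, highest without CKO replicate 2; the lone library is then assumed to vary like the others. The cause of these shifts was not tested. No label says that a replicate number marks a shared source. The replicate 1 minus replicate 2 differences correlated across 10798 genes with r = 0.173 (WT and CKO), 0.469 (WT and BTg) and 0.456 (CKO and BTg), and with a replicate block 0 interferon-stimulated genes passed in any comparison. At unadjusted p under 0.05 the block gave 5 higher and 0 lower in CKO against WT (Gbp2 added), 1 and 1 in BTg against WT (Oas2 added), and 3 and 6 in BTg against CKO (Gbp2, Gbp4 and Oas2 added). The shares over all genes were then 3.78 and 2.79%, 1.64 and 1.82%, and 8.23 and 7.43%.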
